A study of Mus musculus with 10 samples.

Results

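A list of genes named p53-driven death genes and receptors was followed in mouse lung after thoracic radiation, in a study of radiation-induced fibrosis. The 10 genes were chosen by name, with no threshold on measured values, of 45786 genes in the deposited tables. Chosen with earlier results of these data known, they were Bax, Bbc3, Pmaip1, Fas, Tnfrsf10b, Eda2r, Aen, Perp, Zmat3 and Gdf15. Not all of them encode effectors of death: Zmat3 encodes an RNA-binding protein, Gdf15 a secreted factor and Eda2r a receptor that lacks a death domain. All 10 passed the filter on low counts, and 15625 genes were tested in all. The material was a suspension of cells from the whole lung of C57BL/6J mice, an inbred strain. Irradiated mice received 12.5 Gy of γ-rays to the entire thorax, and control mice of matched age received 0 Gy. Pools were taken at 24 hours, 1 week, 4 weeks, 12 weeks and 32 weeks, with 1 irradiated and 1 control pool of 3 mice at each time, so 10 pools and 5 in each group. No time and treatment had a second pool, and the spread between pools is all that the p-values below measure. The labels name no sex and no age in weeks.

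The transcription factor p53 is held at a low level by Mdm2 and is stabilised after DNA breaks. It then raises genes that stop the cell cycle and genes that start apoptosis. The apoptotic genes act at the mitochondrion, where Bax opens the outer membrane and the BH3-only proteins Puma (gene Bbc3) and Noxa (gene Pmaip1) disarm the survival proteins of the Bcl2 family, and at the cell surface, where Fas and Tnfrsf10b, the mouse TRAIL receptor with a death domain, pass on signals from ligands of the TNF family. In the lung, loss of epithelial and endothelial cells after radiation is a recognised early event before fibrosis.

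At 24 hours 5 of the 10 genes rose: Gdf15, Eda2r, Zmat3, Aen and Bax. Against all genes tested, 0.602% were higher at 24 hours by the same rule, which was an adjusted p under 0.05 in edgeR's quasi-likelihood test of the irradiated pool against the 5 control pools. Of all genes, 94 were higher and 71 lower at 24 hours, and with scaling to deposited totals 54 of 122 calls were higher. The median log2 fold change at 24 hours was 1.45 over the 10 genes and -0.01 over all genes tested. At 1, 4, 12 and 32 weeks 0 of the 10 genes passed that test. Of all genes tested, 0.0192%, 0.0128%, 0% and 0.576% were higher by it at those times. In bulk material such as these pools, fewer cells of a type and less RNA per cell cannot be told apart.

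**Figure D1:**
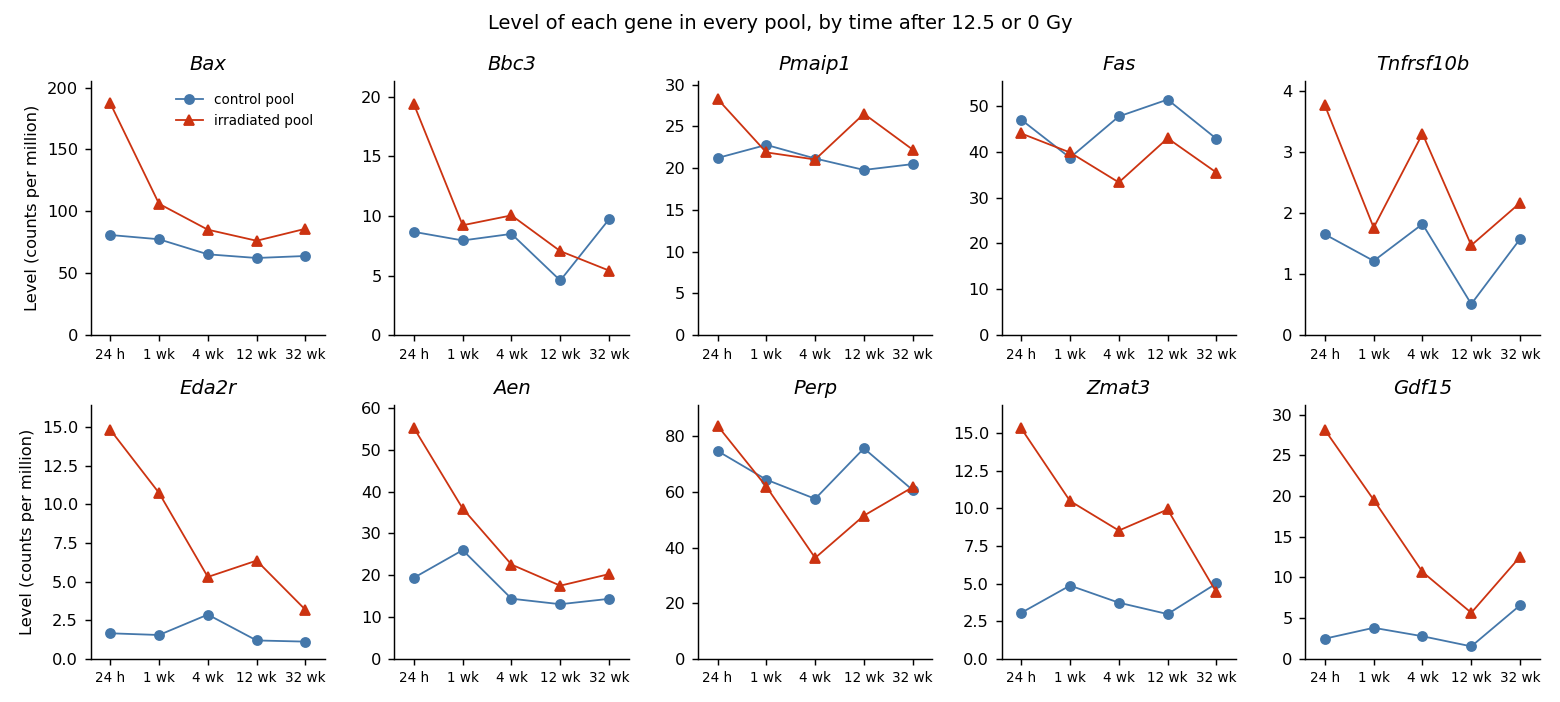
Each panel plots 1 gene, with the level in CPM (counts scaled to the library total) on the y axis from 0 and the 5 times on the x axis; blue circles are control pools and red triangles irradiated pools, and each point is 1 pool of 3 mice, joined by lines only to guide the eye. The 24-hour irradiated pool is the highest of all 10 pools for 9 genes, Fas being the other one.

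Levels here are CPM, counts scaled to the library total after TMM, a correction for library composition. Per length, as FPKM, which divides by gene length and by the library's total, Bax was the highest of the 10 genes in control lung, at 62.5 ± 10.3 (SD, n = 5 pools). Perp followed at 23.1 ± 3.56 and Fas at 18.4 ± 2.19, and the control pools of these neighbours overlapped. Bbc3 at 5.43 ± 1.33, Pmaip1 at 4.45 ± 0.47 and Aen at 4.35 ± 1.58 FPKM also overlapped with each other. Gdf15 came next at 2.51 ± 1.25 FPKM, above Eda2r at 0.50 ± 0.28, Zmat3 at 0.29 ± 0.06 and Tnfrsf10b at 0.21 ± 0.08. The genes of the list with the most transcript per length were thus Bax, Perp and Fas, and of these only Bax rose at 24 hours.

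Bax lies on the minus strand at chr7:45461697-45466898 (GRCm38), a protein-coding gene whose locus overlaps the predicted protein-coding gene Gm45808 on the same strand. Fragments of these genes could be shared. Bax stood at 187 CPM in the 24-hour irradiated pool. The control pools of 24 hours, 1 week, 4 weeks, 12 weeks and 32 weeks held 80.9, 77.4, 65.3, 62.3 and 63.9 CPM. Later irradiated pools held 106 CPM at 1 week, 85.2 at 4 weeks, 76.2 at 12 weeks and 85.9 at 32 weeks. Every irradiated pool was above the control of its own time, and only the 12-week irradiated pool lay within the range of the controls. At 24 hours the log2 fold change was 1.42 ± 0.18 (SE) against the controls, with an adjusted p of 0.00534 (edgeR). The fold between the pools of that time was 2.31, with a 95% counting interval of 2.16 to 2.48 from 2529 and 1217 fragments. Such intervals cover counting error only.

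The promoters of these genes carry the question of where p53 could bind. RefSeq promoter windows, from 250 bases before to 50 bases after a start site (GRCm38.p6), were at hand for 6 of the 10 genes: Bax, Bbc3, Fas, Eda2r, Aen and Gdf15. The windows of Pmaip1, Tnfrsf10b, Perp and Zmat3 were not analysed here. The p53 response element consists of a pair of half-sites of 10 bases separated by at most 13 bases. The windows of Eda2r and Gdf15, which also rose at 24 hours, held no exact half-site, and neither did those of Bbc3 and Fas. Bax and Aen held an exact half-site, searched on both strands, and these stretches are shown because both genes rose at 24 hours.

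Bax, minus strand, chr7:45467049-45467148: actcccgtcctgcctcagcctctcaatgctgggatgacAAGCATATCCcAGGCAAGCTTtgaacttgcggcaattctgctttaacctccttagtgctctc

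Aen, plus strand, chr7:78895927-78895956: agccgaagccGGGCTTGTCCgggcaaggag

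Capitals mark half-sites, in Bax the pair from -212 to -192 relative to the start site with a spacer of 1 base. The downstream half-site of that pair matched exactly and the whole element had 1 mismatch. In Aen the half-site lay from 11 to 20 bases after the first of 2 RefSeq starts and began at -121 relative to the second. An exact half-site was present in 2 of the 6 genes and in 9.55% of the 27025 genes with a window. A whole element with at most 1 mismatch was present in 1 of the 6, which is Bax, and in 1.24% of all genes, and an exact element in 0 of the 6 and 0.074%. These matches describe letters only, and the windows leave out introns and distal sites.

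The BH3-only genes did not pass the test at any time. Bbc3, on the plus strand at chr7:16308393-16318205, held 19.4 CPM in the 24-hour irradiated pool. The control pools held 8.67, 7.95, 8.50, 4.58 and 9.73 CPM in order of time, all below it. The later irradiated pools, at 9.22, 10.1, 7.05 and 5.42 CPM, lay within the control range except that of 4 weeks, which was just above it. At 24 hours the log2 fold change of Bbc3 was 1.30 ± 0.37 with an adjusted p of 0.17, and the fold between the pools of that time was 2.21 (counting interval 1.81 to 2.78). At 32 weeks the irradiated pool was the lower one, with a fold of 0.56.

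Pmaip1, on the plus strand of chromosome 18 from 66458533 to 66465565, was the steadiest gene of the list in control lung, with 19.8 to 22.8 CPM. Its irradiated pools lay between 21.0 and 28.3 CPM, highest at 24 hours and next at 12 weeks, when it held 26.5 CPM. Those 2 pools were above all controls. Neither difference passed the test, with a log2 fold change of 0.42 ± 0.22 and an adjusted p of 0.508 at 24 hours and 0.33 ± 0.23 and 0.619 at 12 weeks (edgeR).

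Aen encodes a nuclease that acts in apoptosis. It lies on the plus strand at chr7:78895854-78911209. Aen held 55.3 CPM in the 24-hour irradiated pool and 36.0 at 1 week, then 22.6, 17.5 and 20.3 at 4, 12 and 32 weeks. The control pools held 19.4, 26.0, 14.4, 13.1 and 14.4 CPM in the same order. The irradiated pools of 24 hours and 1 week were above all controls, and each irradiated pool was above the control of its time. At 24 hours Aen rose by a log2 fold change of 1.66 ± 0.32 (adjusted p = 0.0421, edgeR), and the fold between the pools of that time was 2.83.

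Perp, a membrane protein that p53 induces during apoptosis and that desmosomes need in mouse epithelia, lies on the plus strand at chr10:18845020-18857073. Its level in the 24-hour irradiated pool was 83.9 CPM, against 57.6 to 75.7 CPM in the controls. At 4 weeks the irradiated pool held 36.3 CPM and at 12 weeks 51.5 CPM, both below all controls. Perp passed the test at no time. The log2 fold change was 0.33 ± 0.20 at 24 hours (adjusted p = 0.574) and -0.88 ± 0.22 at 4 weeks (adjusted p = 0.439, edgeR). Beside the 4-week value, the summed level of 8 alveolar macrophage markers was 2875 CPM in that irradiated pool and 7200 to 14700 in the controls. Sums of alveolar type 2, alveolar type 1 and ciliated cell markers in that pool were above every control (42380, 570 and 310 CPM). The club cell sum lay within the control range (9869 CPM). In the 12-week irradiated pool the alveolar macrophage sum was above every control (17250 CPM), with 5 of the 8 markers at a positive fitted log2 fold change. The alveolar type 2 and type 1 sums were then below every control (7343 and 202 CPM). The part of these cells in the result was not tested.

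The receptors went separate ways. Fas, the receptor of Fas ligand, lies on the plus strand at chr19:34290666-34327772, and the small RNA gene Gm27818 overlaps it on the same strand. Fas held 44.0 CPM in the 24-hour irradiated pool and 47.0 CPM in the control of that time. Over all times the irradiated pools lay between 33.3 and 44.0 CPM and the controls between 38.7 and 51.4. The groups overlapped, and the irradiated pool was the lower one at 4 of the 5 times. The log2 fold change at 24 hours was -0.05 ± 0.21 with an adjusted p of 0.966.

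Tnfrsf10b, on the plus strand at chr14:69767472-69784411, was the scarcest gene of the list, with 4 fragments in the 12-week control pool and 60 in the deepest count. The irradiated pools held 3.77, 1.76, 3.30, 1.47 and 2.17 CPM in order of time, and the controls 1.65, 1.22, 1.82, 0.51 and 1.58. Each irradiated pool was above the control of its time, and those of 24 hours, 4 weeks and 32 weeks were above all controls. The log2 fold change at 24 hours was 1.47 ± 0.61 with an adjusted p of 0.379. With 51 against 25 fragments, the fold of 2.17 between the pools of 24 hours had a counting interval of 1.39 to 3.84, and the intervals at 1, 12 and 32 weeks included 1.

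Eda2r, a TNF receptor family member that binds the A2 form of ectodysplasin and lacks a death domain, lies on the minus strand at chrX:97333840-97377216. Eda2r held 14.8 CPM in the 24-hour irradiated pool, 10.7 at 1 week, 5.29 at 4 weeks, 6.35 at 12 weeks and 3.17 at 32 weeks. The controls held 1.65, 1.54, 2.86, 1.19 and 1.11 CPM. Every irradiated pool was above every control pool, which of the 10 genes was so for Eda2r alone, and for 1.17% of all genes tested. At 24 hours the log2 fold change was 3.14 ± 0.45 with an adjusted p of 0.0112 (edgeR). The fold between the pools of that time was 8.26, with a counting interval of 5.91 to 14.2.

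Outside 24 hours Eda2r passed the test at no time. Its log2 fold change was 2.68 ± 0.48 at 1 week (adjusted p = 0.167), 1.66 ± 0.54 at 4 weeks (0.543), 1.92 ± 0.52 at 12 weeks (0.258) and 0.92 ± 0.59 at 32 weeks (0.495, edgeR). The authors' FPKM values gave another size: the ratio between the pools of the same time was 15.1 at 24 hours and 1.29 at 12 weeks, where the fold from counts was 4.82. Deposited counts per FPKM of Eda2r ranged from 14.8 in the 12-week control to 78.6 in the 4-week irradiated pool. That highest-over-lowest ratio was 5.33, against a median of 1.11 over 15403 genes and at most 1.32 for the other 9 genes of the list. By FPKM the 12-week control, at 0.94, was above the irradiated pools of 4 and 32 weeks, at 0.88 and 0.77, so the groups overlapped on that scale. The size of the Eda2r difference at 12 weeks therefore depended on which deposited table was read.

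Zmat3 encodes a zinc finger protein that binds RNA and lies on the minus strand at chr3:32334792-32366014. It held 15.3 CPM in the 24-hour irradiated pool, then 10.5 at 1 week, 8.52 at 4 weeks, 9.92 at 12 weeks and 4.41 at 32 weeks. The controls held 3.05, 4.86, 3.73, 2.97 and 5.0 CPM. The first 4 irradiated pools were above all controls, and the last was below the control of its time. That fold of 0.885 at 32 weeks had a counting interval of 0.627 to 1.23, which included 1. By FPKM the irradiated pool of 32 weeks was the higher one, with a ratio of 1.23. Zmat3 rose at 24 hours, with a log2 fold change of 1.96 ± 0.37 (adjusted p = 0.0405, edgeR) and a fold of 4.81 between the pools of that time. At 12 weeks the fold between the pools was 3.22 (counting interval 2.16 to 5.35), and the fitted log2 fold change of 1.34 ± 0.40 had an adjusted p of 0.299.

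Gdf15 encodes a secreted member of the TGF-β superfamily whose receptor, Gfral, is known from the hindbrain. It lies on the minus strand at chr8:70629393-70632456. Gdf15 held 28.1 CPM in the 24-hour irradiated pool, 19.5 at 1 week, 10.7 at 4 weeks, 5.66 at 12 weeks and 12.5 at 32 weeks. The controls held 2.48, 3.81, 2.77, 1.53 and 6.58 CPM. Each irradiated pool was above the control of its time, and 4 of the 5 were above all controls, the 12-week pool being the exception. At 24 hours Gdf15 rose by a log2 fold change of 3.04 ± 0.50 (adjusted p = 0.0232, edgeR). The fold between the pools of that time was 10.7, with a counting interval of 8.09 to 16.4 that overlapped that of Eda2r. By the ratio of FPKM the order was the other way, 12.0 for Gdf15 and 15.1 for Eda2r.

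The control level of Gdf15 varied most within the list, 4.31-fold from the lowest to the highest control pool. The fold between pools of the same time was 4.96 at 1 week, 3.69 at 4 weeks, 3.44 at 12 weeks and 1.88 at 32 weeks. Against all 5 controls the log2 fold change was 2.51 ± 0.53 at 1 week (adjusted p = 0.189) and 1.87 ± 0.56 at 32 weeks (adjusted p = 0.133), so neither passed the test.

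**Figure D2:**
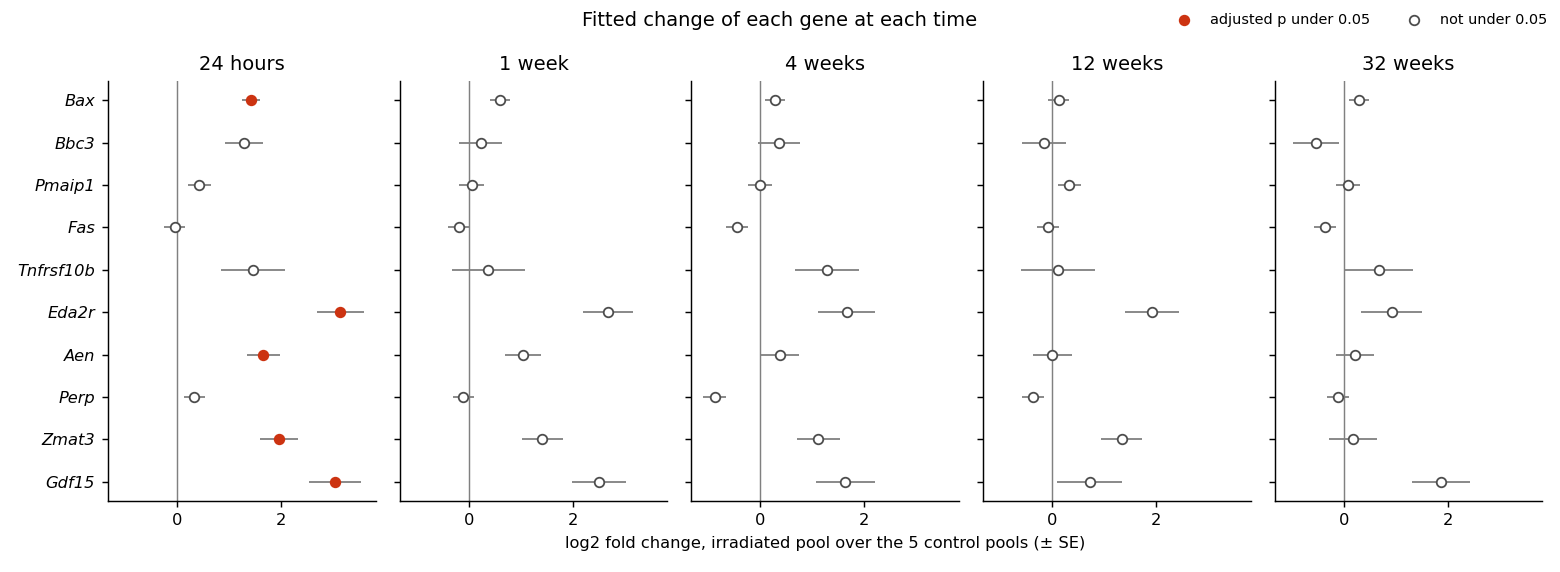
Each panel is 1 time, with the log2 fold change of the irradiated pool over the 5 control pools on the x axis and the 10 genes on the y axis; bars are the standard error of the fit. Filled red points, with an adjusted p under 0.05, occur for 5 genes at 24 hours and for 0 genes later.

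At 24 hours 9 of the 10 genes were above all 5 controls, a position that 22.1% of all genes tested held at that time. The number was 5 of 10 at 1 week (22.6% of all genes), 6 at 4 weeks (19.1%), 3 at 12 weeks (21.9%) and 4 at 32 weeks (25.5%). By the test, 0 of the 10 genes were higher at 1 week (0.0192% of all genes), 4 weeks (0.0128%), 12 weeks (0%) and 32 weeks (0.576%). The last share is 90 of 129 calls, and 36 of 65 with scaling to totals. Unadjusted p-values under 0.05 were found for 7 of the 10 genes at 24 hours, 5 at 1 week, 4 at 4 weeks, 2 at 12 weeks and 1 at 32 weeks, against 1855, 1484, 1125, 1669 and 2556 of all genes tested. DESeq2 called 5 genes of the list at 24 hours, 1 at 4 weeks and 0 at the other times. It gave no adjusted p for Tnfrsf10b at any of these times, nor for Eda2r, Zmat3 and Gdf15 at 1 and 4 weeks. Its counts at 1 and 4 weeks are therefore over 6 of the 10 genes. The gene of 4 weeks was Perp, which was lower, with a log2 fold change of -0.885 by DESeq2. The numbers that DESeq2 called over all genes are given below, with the dependence on the processing.

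Each call at 24 hours rests on 1 irradiated pool, which is assumed to vary like the controls, and leaving out 1 control pool at a time left 3 or 4 of the 5 calls. Bax and Eda2r passed in each of these fits. Gdf15 was lost without the 1-week control (adjusted p = 0.0657), Zmat3 without any but the 32-week control, and Aen without any but the 1-week control. When the controls were allowed a slope over time, 0 of the 5 calls held, with log2 fold changes of 3.53 for Gdf15, 2.92 for Eda2r, 2.14 for Zmat3, 1.26 for Aen and 1.20 for Bax and adjusted p from 0.057 (Bax) to 0.354 (Aen). Scaling to deposited totals kept only Bax and Eda2r.

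**Figure D3:**
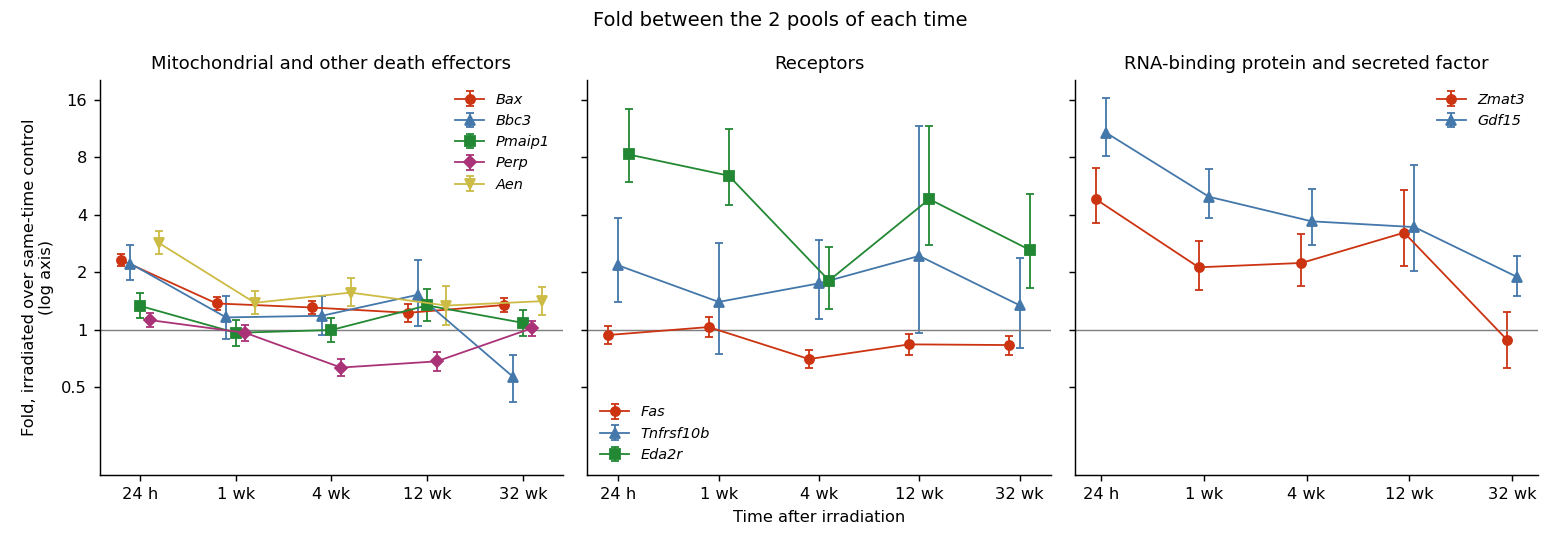
The y axis, on a log scale, is the fold of the irradiated pool over the control pool of the same time, the x axis is time, and bars are 95% counting intervals, which hold no spread between mice. Eda2r and Gdf15 start at 8.26 and 10.7 and stay above 1 at all times, while Fas and Perp reach 0.70 and 0.63 at 4 weeks.

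The next comparison asked whether the genes differed with irradiation over the 5 times together, with time as a block. The irradiated pool was higher in all 5 pairs for Bax, Tnfrsf10b, Eda2r, Aen and Gdf15, so 5 of the 10 genes, and for 6.75% of all genes tested. Summed markers of monocytes and interstitial macrophages were likewise higher in all 5 pairs, at 1442 to 2342 CPM in irradiated and 968 to 1405 CPM in control pools, so that these groups did not overlap. Mesothelial and red cell sums were higher in all 5 pairs too, with groups that overlapped. The part of these cells in the result was not tested. Eda2r had a log2 fold change of 2.16 ± 0.38 and Gdf15 one of 2.11 ± 0.35, each with an adjusted p of 0.15. Zmat3 was at 1.24 ± 0.35 (0.273), Tnfrsf10b at 0.89 ± 0.31 (0.362), Aen at 0.71 ± 0.19 (0.258) and Bax at 0.55 ± 0.14 (0.257). By edgeR 0 of the 10 genes passed, and so did 0% of all genes tested. At an unadjusted p under 0.05 there were 6 of the 10 and 1732 of all genes, and DESeq2 called 5 of the 10 (Bax, Eda2r, Aen, Zmat3 and Gdf15) and 258 of all genes.

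Whether the effect of irradiation changed with time was tested as its product with log2 days. The estimate was negative for 10 of the 10 genes by edgeR, Pmaip1 and Fas being above 0 with limma and Pmaip1, Tnfrsf10b and Perp without the 24-hour pools. It had a median of -0.11 per doubling of days, against 0.01 over all genes. Gdf15 had the steepest estimate, -0.30 ± 0.07 per doubling (unadjusted p = 0.00365, adjusted p = 0.679, edgeR). Bax was at -0.10 ± 0.04 (adjusted p = 0.683). By edgeR 0 of the 10 passed, as did 0% of all genes, while 2 of the 10 and 1095 of all genes had an unadjusted p under 0.05, and DESeq2 called 0 and 60, with no adjusted p for Tnfrsf10b. A decline of the response was therefore not shown for any single gene at this number of pools.

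The slope over log2 days in the control pools came from a fit to all 10 pools, with a separate slope for the irradiated ones. Its error thus also held the spread of the irradiated pools. This slope passed for 0 of the 10 genes and for 0% of all genes (edgeR). Each of the 10 had an adjusted p of 0.998, and 0 of the 10 had an unadjusted p under 0.05, against 673 of all genes. DESeq2 called 0 of the 10 and 26 of all genes.

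The transcript of p53 itself, Trp53, did not pass at any time. Trp53 held 67.7 CPM in the 24-hour irradiated pool and 80.7 CPM in the control of that time, and the log2 fold change against all controls was -0.48 ± 0.20 (adjusted p = 0.372). Of 28 other p53 targets, all tested, 7 rose at 24 hours and 0 fell, with a median log2 fold change of 0.71. The cell-cycle inhibitor Cdkn1a held 517 CPM against 64.6 ± 11.0 in the controls, a log2 fold change of 3.00 (adjusted p = 0.000121). Phlda3, an inhibitor of Akt signalling, was at 2.19 (0.000243), the cyclin Ccng1 at 1.89 (0.00179) and Dcxr, a carbonyl reductase, at 1.46 (0.00986). The remaining ones that rose, named after their values were seen, were Sesn2, Ei24 and Mdm2.

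Later the other targets that rose were Cdkn1a and Phlda3 at 1 week, Cdkn1a at 4 weeks, none of the 28 at 12 weeks, and Phlda3 at 32 weeks (edgeR). Phlda3 at 32 weeks had a log2 fold change of 1.08 ± 0.18 with an adjusted p of 0.0345. Mdm2, the ubiquitin ligase that degrades p53, rose at 24 hours by 0.92 ± 0.17 (adjusted p = 0.0391) and was the only one of 12 tested genes of p53 and its regulators that passed. Chek1, a checkpoint kinase, was at -3.57 ± 0.85 with an adjusted p of 0.099, from 0.24 CPM in the 24-hour irradiated pool against 2.98 ± 0.91 in the controls.

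The partners of the death genes did not pass. Few genes did: of all 15625 tested, 165 passed at 24 hours and 3, 9, 0 and 129 at the later times (edgeR). Of 13 tested genes of the Bcl2 family, 0 passed at any time, and the median log2 fold change at 24 hours was 0.05. Bcl2l1, which encodes the survival protein Bcl-xL, had the smallest p of that family at 24 hours, at 0.53 ± 0.21 (adjusted p = 0.346), and the effector Bok was at -0.91 ± 0.38 (0.378). Of 15 tested genes of death receptor signalling, 0 passed at any time, with a median of 0.15 at 24 hours. Tnfrsf1a, a TNF receptor with a death domain, was at 0.53 ± 0.17 (adjusted p = 0.25), and Edaradd, the adaptor of the ectodysplasin receptor, at -1.99 ± 0.71 (0.29).

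Of 14 caspase and apoptosome genes, 1 fell at 24 hours and 0 rose. Birc5, which encodes survivin and is also used in mitosis, fell by 3.00 on the log2 scale (adjusted p = 0.00706), from 25.1 ± 4.92 CPM in the controls to 3.12 CPM. Of the 8 markers of dividing cells, Birc5 among them, 7 fell at 24 hours. Of 10 listed genes of the Gdf15 receptor and of stress regulators, 9 were tested, and 0 of these passed at any time. The receptor gene Gfral itself was not among those tested. Ret, the co-receptor of Gfral, was at 1.00 ± 0.59 (adjusted p = 0.569) and Atf3, a stress transcription factor, at 0.29 ± 0.34 (0.827).

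**Figure D4:**
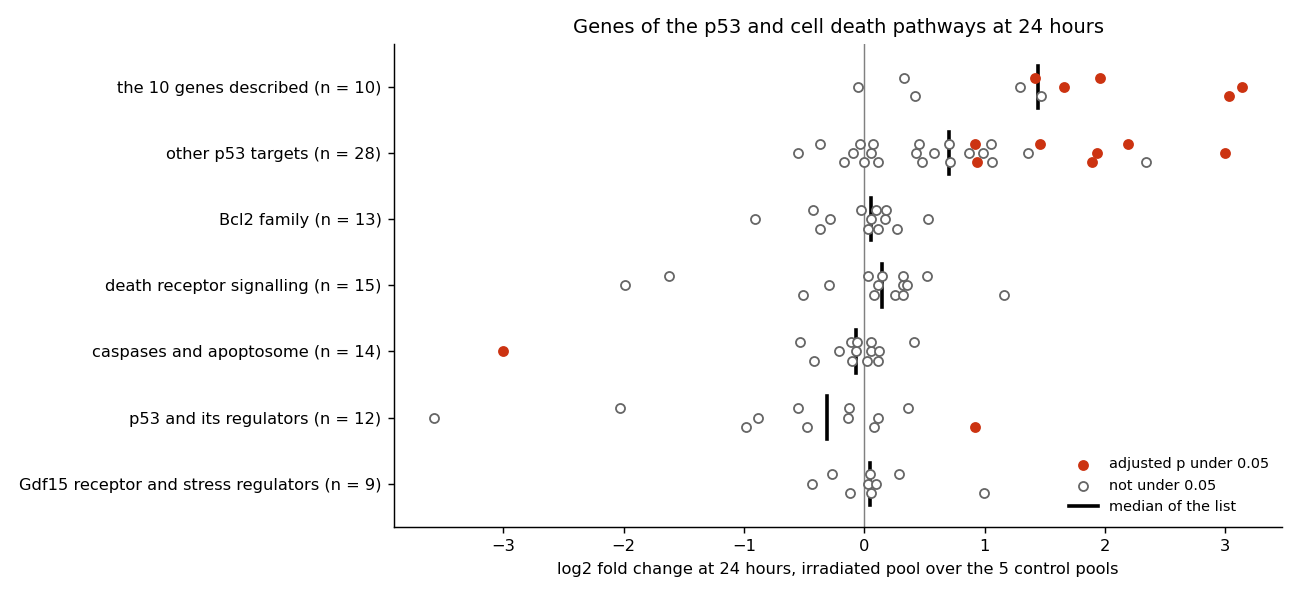
The x axis is the log2 fold change at 24 hours of the irradiated pool over the 5 control pools, each row is a list of genes with its number tested, and each point is 1 gene; filled red points have an adjusted p under 0.05 and black bars are list medians. The 10 genes and the other p53 targets have medians of 1.45 and 0.71, and the Bcl2 family and death receptor signalling have medians of 0.05 and 0.15.

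Cell-type markers moved in the same 24-hour pool, and their part in the changes of the 10 genes was not tested. The summed level of 8 B cell markers was 634 CPM in that pool against 1178 to 1832 CPM in the controls, and that of 8 T cell markers 226 against 466 to 982 CPM. The 8 markers of dividing cells summed to 44.1 CPM, against 230 to 323 CPM in the controls. The ciliated cell sum was also below every control, at 73.5 against 108 to 240 CPM. Sums above every control were found for 7 lists: alveolar type 2 cells (57010 against 23340 to 41900 CPM), alveolar type 1 cells (618 against 315 to 494 CPM), alveolar macrophages (16300 against 7200 to 14700 CPM), monocytes and interstitial macrophages (2342 against 968 to 1405 CPM), neutrophils (1099 against 534 to 791 CPM), fibroblasts (3328 against 1708 to 3273 CPM) and mesothelial cells (270.4 against 104 to 235 CPM). The other 5 lists lay within the range of the controls. At 12 and 32 weeks the alveolar type 2 sum in irradiated pools was 7343 and 8530 CPM, below every control. No gene of the 16 marker lists was at 0 in any pool. Division of each library's total by its step, the size of 1 fragment in the deposited counts, gave 8679468 fragments in the 12-week control to 17472741 in the 4-week irradiated pool.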

How the data were processed

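Total RNA of 10 pools of 3 mice was prepared with RNeasy PLUS (Qiagen), ultralow (Clontech) and NexteraXT (Illumina) kits, per the labels' protocols. This chemistry does not mark the strand, and no molecular identifiers are named. Trimmomatic 0.32, STAR 2.4.2a, Cufflinks 2.0.2, Cuffdiff and build GRCm38.p4 are listed per the submitters' processing notes; the sources used here do not give their roles. Expected counts and FPKM are as the authors deposited them. The deposited counts lay on a step of 0.58 to 1.38 that differed by library, with 73.0% to 80.9% of values whole multiples within 0.05, so they had been rescaled before deposit; totals were 9983710 to 13509769. Columns of no sample numbered 0. Symbols and coordinates came from GENCODE M21 for 45223 genes; the other 563 took at most 0.135% of counts.

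Counts were rounded, filtered (edgeR's filterByExpr, minimum count 10) and scaled by TMM (0.933 to 1.086). The quasi-likelihood F test was robust and 2-sided (edgeR 4.0.16 in R 4.3.3), with Benjamini-Hochberg adjustment over 15625 genes and a threshold of 0.05. Standard errors are the log2 fold change over the root of F. Each time set 1 irradiated pool against 5 controls (4 residual degrees of freedom). The comparison across times had a block for time (4), the change with time added the product with log2 days (3), and the slope in controls left 6. Folds between pools of the same time used a prior count of 2, which understates folds of low genes, and their 95% intervals are exact binomial ones on fragments. Alternatives were DESeq2 1.42.0, limma 3.58.1 on log2(FPKM + 1) and log2(FPKM + 0.1), other scalings, no filter, leaving pools out, and controls with a slope. The edgeR fits at 24 hours and over the 5 times were tested on simulated data, and the other fits were not. Named genes were the 10 members, Trp53, up to 4 genes with the smallest p at 24 hours of each pathway list, and for each member the 2 genes most alike across pools. Members and lists were chosen with earlier results of these data known.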

Additional observations from a re-analysis of the deposited data

Results flagged for a closer look

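Bax in the irradiated pools stood out by a wide gap: 187.4 CPM at 24 hours, the next highest irradiated pool holding 106 CPM. Among 20 sets of 5 pools (10 genes in each of 2 groups) this was the only one with a sample so far from the others by Dixon's criterion, and chance flags about 1 in 20. The 24-hour pool is also the earliest one, so time and pool cannot be told apart.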

How the results depend on the processing

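No member changed direction at 24 hours or over the 5 times under the alternatives. Of the 10 genes, 5 passed at 24 hours; 2 did with scaling to deposited totals, 0 with a slope in the controls, and 3 to 4 when each control was left out in turn, while 4 or 5 did under the others. Over the 5 times DESeq2 called 5 rather than 0, and fits with or without the replicate block (the shared time) called 0. Other counts of members left 0 in 1 setting each: 1 at 1 week with no filter (Eda2r, adjusted p = 0.0433), 1 at 4 weeks with DESeq2 (Perp, lower, 0.0369, of 6 genes with an adjusted p) and 1 at 32 weeks with limma on log2(FPKM + 1) (Gdf15, 0.0419). Scaling to totals moved the median log2 fold change of all genes by -0.13 at 24 hours and -0.10 at 1 week. The cause of these differences was not tested.

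Of all genes, DESeq2 called 543 at 24 hours, 252 at 1 week, 95 at 4 weeks, 238 at 12 weeks and 857 at 32 weeks, where edgeR called 165, 3, 9, 0 and 129, and no filter gave 260, 31, 30, 37 and 365. A slope in the controls left 52 at 24 hours and 11 at 32 weeks, and scaling to totals 0 at 1 week and 65 at 32 weeks. Limma with a pseudocount of 1 gave 101 at 24 hours, 16 at 4 weeks, 7 at 12 weeks and 381 at 32 weeks, and with 0.1 gave 119, 17, 13 and 109. Leaving out a control gave 66 (without the 1-week pool) to 169 at 24 hours, 0 to 12 at 1 week, 5 to 15 at 4 weeks, 0 to 2 at 12 weeks, and at 32 weeks 8 (without the 1-week pool) to 299 (without the 4-week pool). No filter called 1 gene over the 5 times and 1 for the change with time.

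Estimates close to 0 changed sign. This also held at single later times, where log2 fold changes over the settings reached both sides of 0. At 12 weeks the ranges were -0.084 to 0.314 for Aen, -0.304 to 0.225 for Bbc3, -0.087 to 0.29 for Tnfrsf10b and -0.137 to 0.025 for Fas. At 32 weeks Perp ranged from -0.199 to 0.081. Pmaip1 ranged from -0.047 to 0.111 at 1 week, -0.026 to 0.142 at 4 weeks and -0.019 to 0.251 at 32 weeks. For the change with time, limma at pseudocounts of 1 and 0.1 gave 0.0195 and 0.0238 for Pmaip1 and 0.00309 and 0.00327 for Fas. Leaving out a time gave -0.0336 to 0.0602 for Pmaip1, -0.0782 to 0.0283 for Tnfrsf10b and -0.132 to 0.00813 for Perp. For the slope in controls, scaling to totals gave 0.000334 for Bbc3 and 0.000473 for Pmaip1, and limma -0.0119 and -0.0125 for Fas and 0.0164 and 0.0259 for Eda2r. Leaving out a time gave slopes of -0.105 to 0.0233 for Bbc3, -0.00703 to 0.0397 for Fas, -0.146 to 0.00885 for Tnfrsf10b, -0.156 to 0.0121 for Eda2r, -0.0407 to 0.0102 for Perp, -0.017 to 0.0708 for Zmat3 and -0.0909 to 0.162 for Gdf15. None of these estimates passed the test in any setting. Folds between pools of the same time stayed within their counting intervals with a prior count of 0.5. Depth limits Tnfrsf10b most, with 4 fragments in the 12-week control.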

Other observations

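The genes whose log2 CPM over the 10 pools was most like that of a member were looked up among all genes tested, as a description; the pools share libraries and treatment, and the likeness is the highest of 15625 values. Aen was the closest gene to Bax (Pearson r = 0.95), so 1 member was the best match of another. The match was not mutual, as Gaa (0.967) and Gm20536 (0.959) were the closest to Aen. Psrc1, a further p53 target of the list, was closest to Bbc3 (0.96), and Lmtk2 to Eda2r (0.95). For Gdf15 the closest were Fam53b (0.94) and Trpm2 (0.93), for Zmat3 Znfx1 (0.93) and for Tnfrsf10b Rnf213 (0.94). The closest gene to Pmaip1 was 1600014C10Rik (0.911), to Fas Slc7a6os (0.941) and to Perp Atxn10 (0.945).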
